A study of Caenorhabditis elegans with 3 samples.

Results

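C-type lectin genes (clec) form one of the largest families of predicted secreted proteins in the nematode Caenorhabditis elegans, and their transcripts were examined here in adult hermaphrodites. The members were all genes named clec and a number by a probe with a single gene symbol, which gave 219 probes for 208 of the 15168 genes so named on the array. Of these, 207 had a value on all 3 arrays and were tested. The remaining member, clec-207, stood at -0.31 and 0.31 on replicates 1 and 2 and had no value on replicate 3. RefSeq's WBcel235 gene table lists 264 clec genes, all 208 members among them, so 56 were not measured by such a probe, clec-4 and clec-85 among those.

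Each of the 3 two-colour arrays compared 1 RNA prep of adult hermaphrodites, under the submitters' unexplained sample code TP09, with a mixed reference RNA from wild-type worms. The labels give neither the genotype nor the culture conditions of the adults, nor the stages in the reference, so strain, food, stage and tissue can all enter a ratio. Whether the preps were grown as separate cultures is likewise unstated, and p-values then measure only prep-to-prep spread, which may be technical. In RNA from whole worms, fewer cells of a type and less RNA per cell cannot be told apart. A value is the log2 ratio of adult over reference on an array centred on its median, a difference of 1 being 2-fold, with the SD over n = 3 arrays. Precision is limited by the number of arrays, and changes in total RNA per worm do not enter the values.

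No label says which channel was divided by which. Adult over reference is the likely direction, since adult RNA is given as channel 2, and all signs turn if it is wrong. Of 15 oocyte markers 14 were higher and 1 was lower, with medians of 1.63, 1.31 and 1.45 on replicates 1 to 3. Among 14 larval moulting markers 10 were lower, 4 did not pass, and the medians were -1.04, -0.92 and -0.75. The yolk protein markers, made in the adult intestine, gave no clear sign. Of 6 listed 3 were tested: 1 was higher and 2 did not pass. Their medians were -0.18, 0.31 and 0.39. An array had values for 19807 to 19899 of its 20000 probes. Replicate 1 stood somewhat apart: over all genes tested its Pearson's r with replicates 2 and 3 was 0.82 and 0.85, beside 0.92 between those 2.

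A C-type lectin-like domain is a compact protein fold, held by disulphide bonds, that in some proteins binds sugars in the presence of calcium. Most clec genes encode secreted or membrane proteins with 1 or more such domains, many are expressed in the intestine, and different sets of them are induced by different bacteria, which has made them a standard readout of nematode immunity. For most members no function is known, and similarity to vertebrate lectins does not establish that a given protein binds sugar.

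Most C-type lectin transcripts lay close to the median probe, with a tail of lower genes longer than that of higher ones, as over all genes. Of the 207 members, 51 (24.6%) passed limma's test against 0 at an adjusted p under 0.05, beside 44.4% of all 15092 genes tested. The adult level was higher for 18 (8.70%; all genes 20.9%) and lower for 33 (15.9%; all genes 23.5%). All 51 had 1 sign on the 3 arrays, but a call leaves little room for opposite signs. The same share was not worked out for all called genes. Without replicate 1 the calls numbered 60 (all genes 47%), 21 of them higher (all genes 22.6%). Without replicate 2 there were 41 (39.3%), and without replicate 3 there were 35 (32.8%), with 10 higher members in each case (17.9% and 15.1%). Array weights gave 74 calls (55.1%), and centring each array within 32 runs of consecutive rows of the table gave 56 (45.4%). The members' median log2 ratio was 0.02, beside -0.02 for all genes, and their quartiles were -0.26 and 0.20, beside -0.39 and 0.32. Within 0.5 of 0 lay 168 members (81.2%; all genes 61.5%).

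**Figure D1:**
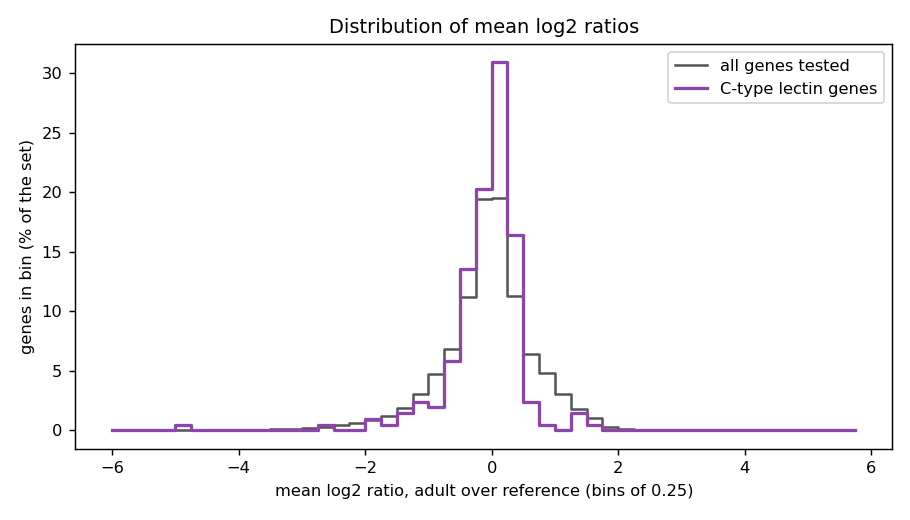
Mean log2 ratio of adult over reference on the x axis, in bins of 0.25, and percent of genes per bin on the y axis, for the 207 C-type lectin genes and for all 15092 genes tested. The members' curve is narrower on both sides of 0, with 81.2% of members within 0.5 of 0 against 61.5% of all genes.

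The spread between arrays was slightly wider for the members than for all genes. Their median SD was 0.26, beside 0.21, and 114 of 207 (55.1%) had 1 sign on all arrays, beside 67.6% of all genes. Members' means also lay nearer 0, with a median absolute log2 ratio of 0.23, beside 0.35. The share with 1 sign and the correlations below therefore do not measure spread alone. Over the 207 members, which are not independent replicates and share their arrays, Pearson's r of replicate 1 was 0.71 with replicate 2 and 0.73 with replicate 3, and the latter pair had 0.87. Without clec-60 the 3 values were 0.62, 0.65 and 0.84. Replicate 1 lay over 1 away from the mean of the other arrays for 10 members. Spot intensities were not used here, so how many members lay near background cannot be given.

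**Figure D2:**
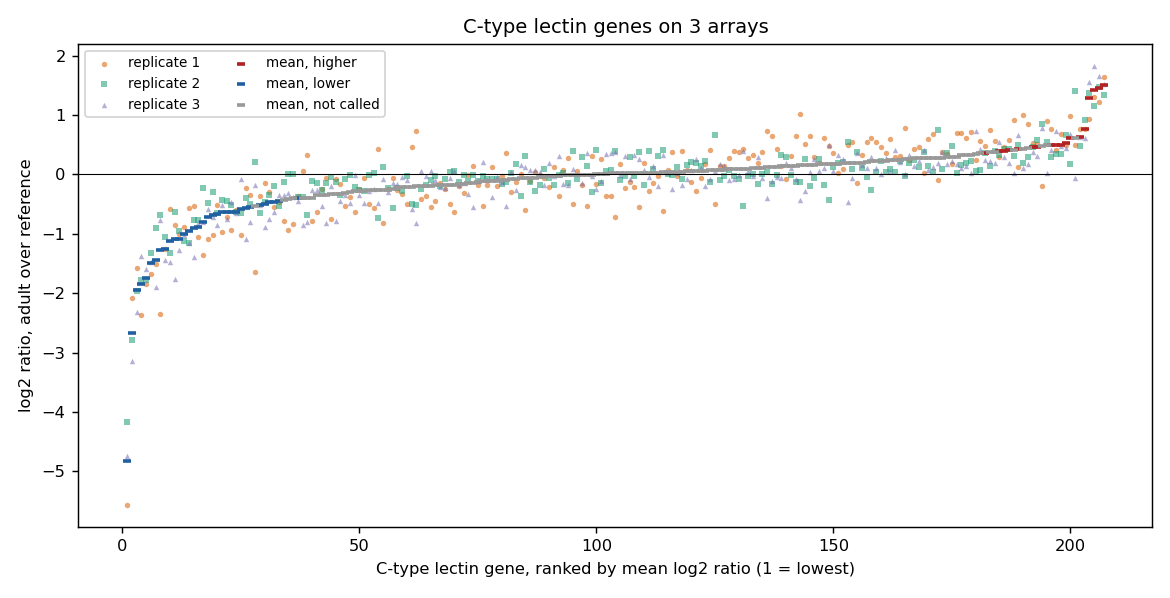
Log2 ratio on the y axis of each of the 207 C-type lectin genes, ranked by mean on the x axis, with a point per array and a bar at the mean coloured by its call. Means run from -4.82 (clec-60) to 1.5 (clec-49), and 156 members did not pass the test.

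Differences over 2-fold were called for 17 members, or 8.21%, beside 15.5% of all genes. Of these 13 were lower (all genes 8.97%) and 4 higher (all genes 6.53%). Over 4-fold there were 2 members (0.966%; all genes 2.33%), both lower (all genes 2.01%), and 0 higher (all genes 0.318%). Tested against a 1.5-fold change with limma's treat, 10 members were lower and 4 higher, 6.76% of members beside 13.8% of all genes. Of the 18 higher members 11 differed by under 1.5-fold, as did 9 of the 33 lower ones. Counts under 1.5-fold were not made over all genes, so they describe the members only.

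clec-60 (ZK666.6) had the lowest ratio of the family. It is known as a gene induced by infection with the Gram-positive pathogens Staphylococcus aureus and Microbacterium nematophilum. It stood at -5.56, -4.16 and -4.74 on replicates 1 to 3. Every array put it far below any other member, and its mean was -4.82 ± 0.70. Adults thus had a 28.3-fold lower level (adjusted p = 2.8e-05), the third lowest ratio of all genes tested.

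clec-13 (H16D19.1) came next, at -2.07, -2.78 and -3.14, with a mean of -2.66 ± 0.54, or 6.34-fold lower (adjusted p = 9.69e-05). Its 2 probes had means of -2.41 and -2.91. A further pair of probes is annotated to both clec-13 and its neighbour clec-15, and these had means of -2.72 ± 0.67 and -2.67 ± 0.58. All 4 probes were thus below -2 in the mean but differed on single arrays, as the clec-13 probes read -1.47 and -2.68 on replicate 1 and the shared ones -3.18 and -2.17 on replicate 2. Which of these genes the shared probes reported is uncertain.

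clec-68 (F56D6.1) stood at -1.57, -1.96 and -2.32, a 3.86-fold lower level (adjusted p = 0.000137). Its neighbour clec-67 (F56D6.2), whose induction by Pseudomonas aeruginosa depends on the p38 kinase PMK-1, stood at -0.53, -0.77 and -1.40, or 1.87-fold lower (adjusted p = 0.00526). Both genes were lowest on replicate 3. Against a 1.5-fold change, clec-68 passed (adjusted p = 0.000942) and clec-67 did not (adjusted p = 0.286).

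clec-264 (F31D4.4) stood at -2.37, -1.79 and -1.37, with a mean 3.59-fold lower (adjusted p = 0.000307). clec-47 (T09F5.9) differed by nearly the same amount with less spread, at -1.85, -1.79 and -1.58, or 3.34-fold lower (adjusted p = 8.22e-05). No function can be given for either gene. The neighbours clec-97 (ZK39.6) and clec-98 (ZK39.7) were close to each other, with means of -1.49 ± 0.17 and -1.43 ± 0.50 (adjusted p = 0.000153 and 0.000845). On the arrays clec-97 stood at -1.68, -1.33 and -1.47, and clec-98 at -1.52, -0.90 and -1.89.

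clec-180 (F32E10.3) was lower by an amount that rested on replicate 1, at -2.35 against -0.68 and -0.77 on the others. Its mean was -1.27 ± 0.94 (adjusted p = 0.0123), and -0.73 without replicate 1 (adjusted p = 0.00247). clec-233 (F21H7.4) was more even, at -1.26, -1.05 and -1.44, or 2.37-fold lower (adjusted p = 0.000318). clec-249 (Y51A2A.7) stood at -0.57, -1.33 and -1.47, and clec-230 (C29F3.5) at -0.85, -0.63 and -1.76, 2.18-fold and 2.11-fold lower in the mean (adjusted p = 0.00229 and 0.00527). None of these genes but clec-233 passed against a 1.5-fold change.

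clec-1 (F25B4.9) stood at -1.0, -0.96 and -1.28, or 2.11-fold lower (adjusted p = 0.000536). Close to it, clec-7 (F10G2.3) stood at -0.89, -1.12 and -1.02, or 2.01-fold lower (adjusted p = 0.000582). The 2 genes were thus steady over the arrays, and both passed against a 1.5-fold change (adjusted p = 0.0264 and 0.0396). The lower members between 1.5-fold and 2-fold were clec-12, clec-67, clec-19, clec-55, clec-221, clec-20, clec-194, clec-225, clec-37, clec-51 and clec-31, with means from -0.96 to -0.63. Of these, clec-31 (F49A5.2) varied least, at -0.61, -0.63 and -0.65, and clec-55 (F08H9.9) most, at -1.35, -0.23 and -0.80. Without replicate 1 the value of clec-55 was -0.51.

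The 9 remaining lower members, under 1.5-fold, were clec-33, clec-229, clec-65, clec-119, clec-62, clec-234, clec-199, clec-218 and clec-34, with means from -0.58 to -0.40. Each of them lost its call without at least 1 of the replicates. clec-65 (F35C5.8) stood at -0.35, -0.49 and -0.81, and at -0.42 without replicate 3 (adjusted p = 0.158). clec-33 stood at -1.02, -0.64 and -0.07, and at -0.36 without replicate 1 (adjusted p = 0.114). clec-229 and clec-62 were -0.31 and -0.30 without replicate 3 (adjusted p = 0.308 and 0.331). Without replicate 3 clec-33 stood further from 0, at -0.83. Replicate 3 was thus the array that moved clec-33, clec-229 and clec-62 most, though not to the same side.

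The 4 members over 2-fold higher were led by clec-49 (W04E12.6), which takes part in resistance to the pathogen Serratia marcescens. It stood at 1.64, 1.34 and 1.53, with a mean of 1.5 ± 0.15, or 2.83-fold higher (adjusted p = 0.000141). The 3 arrays lay close together, and all were above 1. clec-39 (T25E12.7), named with clec-49 in the same infection, stood at -0.24, -0.25 and -0.53 and did not pass (adjusted p = 0.0665; without replicate 1, -0.39 and adjusted p = 0.0421).

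clec-56 (F08H9.7) stood at 1.22, 1.47 and 1.67, or 2.74-fold higher (adjusted p = 0.000201). clec-48 (C14A6.1) followed at 1.30, 1.15 and 1.83, or 2.69-fold higher (adjusted p = 0.000402). clec-186 (ZK896.7) stood at 0.94, 1.37 and 1.55, or 2.44-fold higher (adjusted p = 0.000495). These 3 genes were highest on replicate 3, and with clec-49 they were the higher members that passed against a 1.5-fold change.

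A gap followed on the higher side, since the next member, clec-91 (ZK858.3), stood at 0.77, 0.91 and 0.61, or 1.70-fold (adjusted p = 0.00231). clec-88 (K10B2.3) stood at 0.77, 0.48 and 0.63, or 1.55-fold (adjusted p = 0.0054). These were, with the 4 above them, the 6 higher members that kept their call and sign whichever replicate was left out. Among the lower members 24 did so. The same count was not made over all genes, so these numbers describe the members only. clec-196 (F26D10.12) stood at 0.99, 0.17 and 0.69 and lost its call without replicate 1 (adjusted p = 0.0579) or replicate 3 (adjusted p = 0.0717).

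clec-50, clec-107, clec-53, clec-110 and clec-41, at means of 0.53, 0.50, 0.50, 0.49 and 0.47, were also called higher. clec-50 (W04E12.8), the neighbour of clec-49, stood at 0.50, 0.66 and 0.44 (adjusted p = 0.0102; 0.0701 without replicate 2). clec-107, clec-110 and clec-53 lost their calls without replicate 3, with adjusted p = 0.0846, 0.0787 and 0.198. The values of clec-107 and clec-110 did not fall there, at 0.51 and 0.53, whereas clec-53 fell to 0.38. The 2 probes of clec-107 disagreed, at 0.85 and 0.15, and those of clec-110 stood at 0.75 and 0.24, so that not every probe of these genes passed when probes were tested singly.

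**Figure D3:**
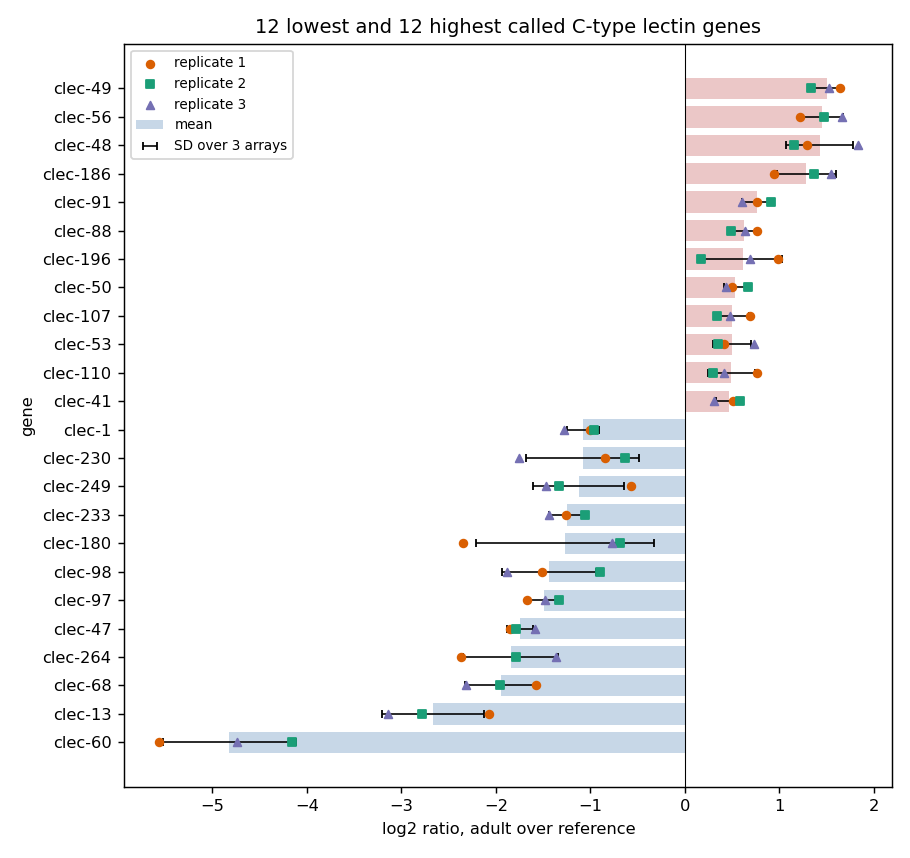
Log2 ratio on the x axis for the 12 lowest and 12 highest C-type lectin genes that passed the test, with a point per array, a bar from 0 to the mean and a line for the SD over 3 arrays. clec-60 stands apart at -4.82, clec-180 has 1 array at -2.35 and the others at -0.68 and -0.77, and 4 genes from clec-186 to clec-49 stand at 1.29 to 1.5.

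The remaining higher members were clec-87, clec-52, clec-109, clec-3, clec-210 and clec-252, with means from 0.46 to 0.36. clec-87 (C25A1.8) stood at 0.54, 0.47 and 0.38 (adjusted p = 0.0174). With centring within runs of rows it stood at 0.19 (adjusted p = 0.244). All 6 lost their calls without at least 1 replicate. The value of clec-223 (C03E10.5) was -0.14 ± 0.37 and did not pass (adjusted p = 0.536), with arrays at 0.15, -0.01 and -0.55.

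Differences of the remaining members singled out for a role, or by name alone, were under 1.5-fold. clec-38 (T25E12.10), which modulates axon growth guided by the netrin receptor UNC-40, stood at -0.17, -0.35 and -0.44 (adjusted p = 0.0766; 0.0293 without replicate 1). clec-41 and clec-42 have been studied in infection with Bacillus thuringiensis. clec-41 (B0365.6) stood at 0.51, 0.58 and 0.31 (adjusted p = 0.0194), a call lost without replicate 2 (adjusted p = 0.113) or replicate 3 (adjusted p = 0.0617). clec-42 (F16H6.1) stood at -0.53, -0.08 and -0.34 (adjusted p = 0.103). clec-86 (C54D1.2), for which no role is given here, stood at -0.39, -0.01 and -0.48 (adjusted p = 0.136).

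The 156 members that did not pass ranged from -0.54 to 0.62, and 154 of them lay within 0.5 of 0. Their means were positive for 90 and negative for 66, and 12 had an unadjusted p under 0.05. The 2 outside 0.5 were uneven. clec-61 (ZK666.7) stood at -1.64, 0.21 and -0.17 (adjusted p = 0.217), so its mean of -0.54 came from replicate 1, without which it was 0.018; without replicate 2 it was -0.91 (adjusted p = 0.0196). clec-102 stood at 0.50, 1.41 and -0.06 (adjusted p = 0.0893), where 1 of its 2 probes read 3.00 on replicate 2 and the other -0.17.

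Of the 207 members, RefSeq annotates 190 as protein-coding and 17 as pseudogenes. All 51 called members were protein-coding (26.8% of that class, beside 45.2% of the 14510 protein-coding genes tested). The 17 pseudogenes lay between -0.35 (clec-192) and 0.30 (clec-154), with a median absolute log2 ratio of 0.07, beside 0.25 for the coding members. By limma 0 pseudogene members passed, 1 had an unadjusted p under 0.05, and with array weights 2 passed. Over all genes tested 566 were annotated as pseudogenes and 141 (24.9%) passed, with a median absolute ratio of 0.22. Values of pseudogenes and of near-identical coding relatives are uncertain, since whether probes share signal between copies was not tested.

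Many clec genes neighbour each other in the genome. In the order of protein-coding genes and pseudogenes in the RefSeq table, 172 of the 264 clec genes lay in 50 runs in which at most 2 other genes stood between one clec gene and the next. Of the 131 measured members in runs 30 (22.9%) passed, and of the 76 outside runs 21 (27.6%) did. In 63 pairs of immediate neighbours, both measured, the median difference between the log2 ratios was 0.20, beside 0.37 over all 21321 pairs of members. A gene can occur in several pairs, and signal shared between similar neighbours was not tested. Neighbours can also share a shift tied to their rows in the table. Centring within runs of rows moved clec-227 from 0.20 to 0.47 and its neighbour clec-56 from 1.45 to 1.73. The medians were not worked out with that centring, so they are descriptions.

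Large differences nevertheless occurred between immediate neighbours, and 7 of the 63 pairs were over 1 apart. In 4 pairs both genes passed. They lay on the same side in clec-97 and clec-98, clec-67 and clec-68, and clec-49 and clec-50. The exception was clec-225 (B0365.5), at -0.96, -0.44 and -0.52, beside clec-41 on the higher side.

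The run of clec-60 shows the widest contrast. Of its 4 genes, clec-58 and clec-59 stood at -0.39 and 0.03 and did not pass, clec-60 was 28.3-fold lower, and clec-61 did not pass. In the run from clec-93 to clec-99, 2 of the 7 measured genes were lower, and the 5 others ranged from -0.20 (clec-95) to 0.35 (clec-96). clec-57, clec-227, clec-56, clec-54 and clec-55 formed a run with calls both ways, as clec-56 was higher, clec-55 was lower and the others stood at 0.48, 0.20 and -0.42. clec-51 and clec-52, also in 1 run, stood at -0.63 and 0.43 (adjusted p = 0.00868 and 0.0477; the second lost without replicate 2 or 3, with adjusted p = 0.156 and 0.319).

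Among other runs, none of the 8 genes from clec-127 to clec-134 passed by limma, with means from 0.00 (clec-127) to 0.26 (clec-131), and likewise the 4 from clec-136 to clec-139, between -0.05 and 0.25. From clec-62 to clec-66, 2 of 5 were lower and the median was -0.39. With the arrays centred within runs of rows, clec-63 and clec-66 of that group passed too, at -0.57 and -0.44 (adjusted p = 0.0161 and 0.0283). The 4 genes of the run holding clec-38 and clec-39 lay between -0.40 and -0.22, where clec-34 was called lower. With that centring clec-34 stood at -0.23 (adjusted p = 0.158) and clec-38 and clec-39 both at -0.15, so that 0 of these 3 passed. In the run of 15 genes from clec-40 to clec-33, 10 were measured, 3 were lower (clec-37, clec-31 and clec-33) and the median was -0.28; clec-33 lost its call with that centring (-0.45, adjusted p = 0.0649). Of the 13 genes from clec-67 to clec-79, 3 were measured, with clec-79 at -0.01 beside the lower clec-67 and clec-68.

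**Figure D4:**
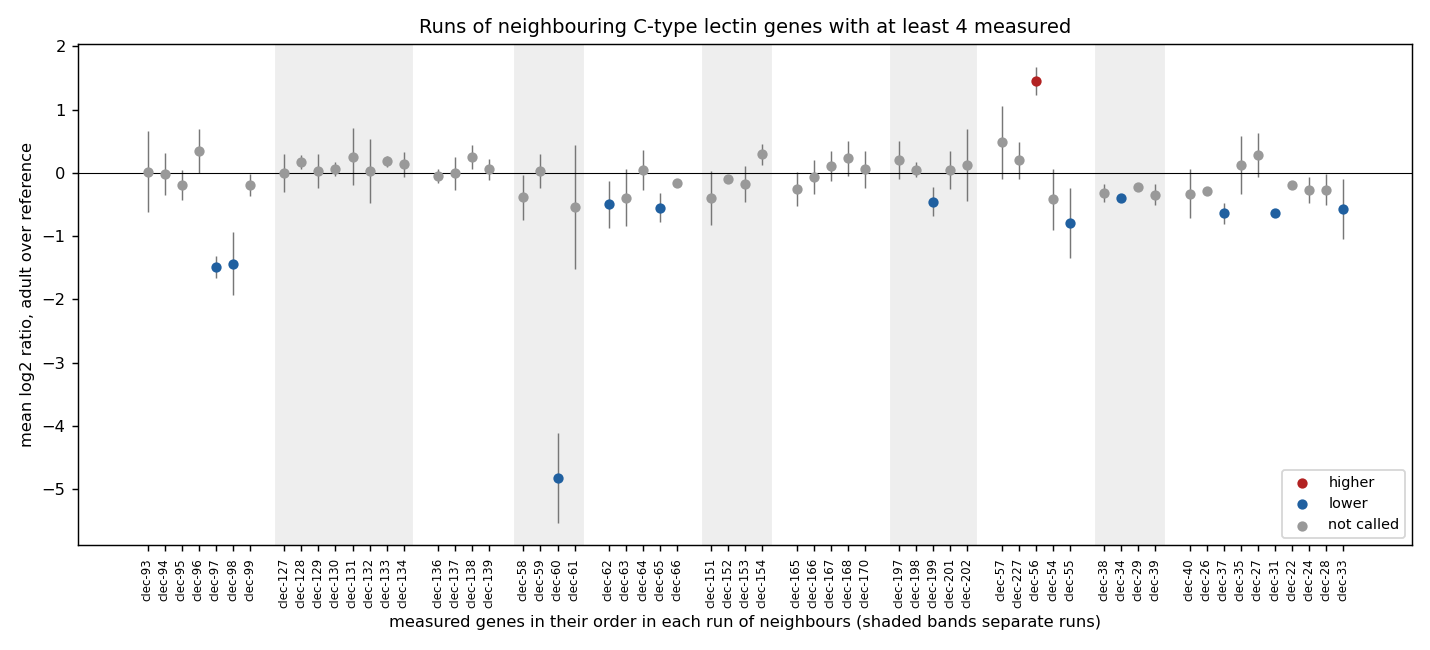
Mean log2 ratio on the y axis, with the SD over 3 arrays as a line, of the measured genes in each run of neighbouring C-type lectin genes with at least 4 of them measured; the x axis gives gene order, not distance, and colours give the call. In the run of clec-60 that gene stands at -4.82 while clec-58, clec-59 and clec-61 lie between -0.54 and 0.03, and the run from clec-127 to clec-134 stays between 0.00 and 0.26.

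Other defence genes were read from the same fit, each list described by its counts and its median. Counts here and below are of genes tested. These were 20 of 35 listed antimicrobial peptide genes, 14 of 23 saposin-like genes and 4 of 6 thaumatin-like genes. Over all genes tested 23.5% were lower and 20.9% higher, and the median was -0.02. Of 16 lysozyme genes, whose products cut bacterial cell walls, 3 passed on each side of 0 and the median was -0.21, with lys-3 at -2.79 ± 0.74 and ilys-5 at 1.66 ± 0.14. Of 14 saposin-like genes, some of which encode pore-forming proteins, 9 were lower and 1 was higher, with a median of -0.76. Of these, spp-18 stood at -2.34 and spp-8 at -2.06. Of 20 antimicrobial peptide genes 12 were lower and 0 higher (8 did not pass), with a median of -0.76, nlp-29 at -2.62 and cnc-1 at -2.17. Thaumatin-like genes had 3 of 4 lower and a median of -1.13, with thn-1 at -1.65 and thn-2 at -1.26. Galectins, lectins of another fold, had 5 of 11 lower and 1 higher and a median of -0.34, with lec-2 at -2.21 and lec-5 at -1.41. For the members the same counts were 33 lower and 18 higher of 207, with a median of 0.02.

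Immune signalling genes are read against the same shares over all genes, 23.5% lower and 20.9% higher. In the p38 pathway, which controls many infection-induced lectins, 7 of 11 genes were lower and 1 was higher, with a median of -0.68. Its phosphatase gene vhp-1 stood at -1.28 and the kinase gene pmk-2 at -1.11, while pmk-1 was the higher one, at 0.41 ± 0.23 (adjusted p = 0.0427). Among immune transcription factor and receptor genes 7 of 10 were lower and 1 was higher, and the median was -0.42, with zip-2 at -0.91 and egl-5 at -0.77. The DBL-1 pathway, a TGF-beta pathway of body size and immunity, had 8 of 9 lower and a median of -0.75, with sma-6 at -0.96 and sma-10 at -0.86. Infection response genes had 4 of 7 higher and 2 lower and a median of 1.14, with irg-5 at 3.82 and irg-8 at 2.91. Markers of the intestine went both ways, 4 higher and 6 lower of 13. Their median was 0.25, with -0.02, 0.45 and 0.41 on replicates 1 to 3. Of these markers, elt-2 and elt-7, both lower, are also counted among the immune transcription factor and receptor genes. The part of the intestine markers in the lectin ratios was not tested. Neuron markers had 8 of 12 lower (median -1.29) and sperm markers 5 of 12 lower and 1 higher (median -0.32).

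**Figure D5:**
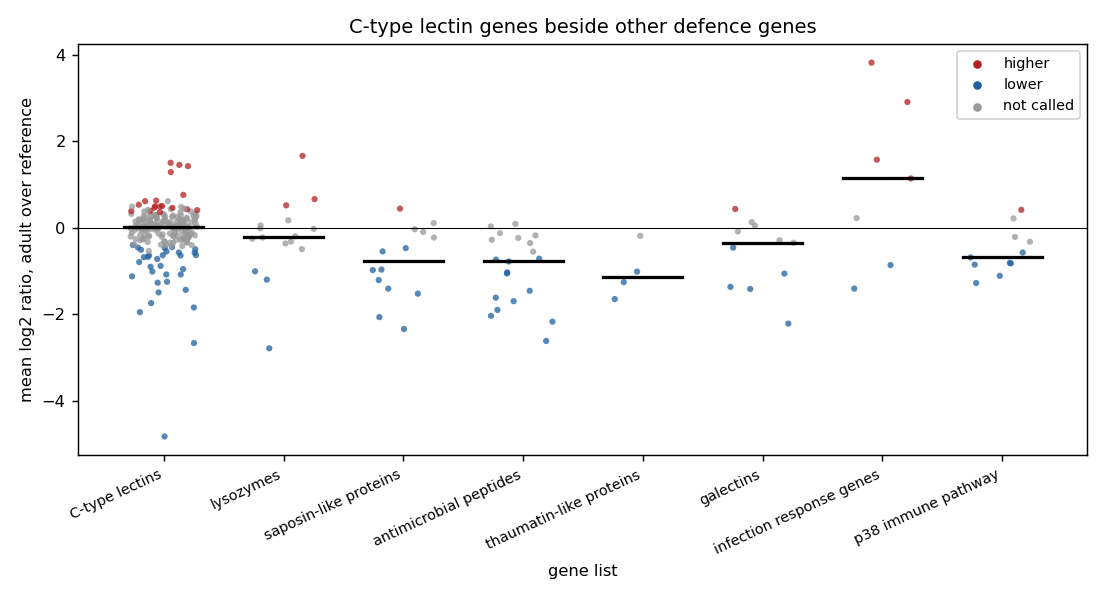
Mean log2 ratio on the y axis of each gene of the C-type lectin family and of 7 other lists on the x axis, a point per gene coloured by its call and a line at each list's median. The C-type lectins centre on 0.02 with a lower tail to -4.82, the saposin-like and antimicrobial peptide lists centre on -0.76, and infection response genes reach 3.82.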

How the data were processed

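The file deposited by the authors gives a log2 ratio for each of 20000 probes on each array. Its log base was read off the values: of 58013 values between -2 and 2, 100% gave a ratio with 3 decimals when raised as log2 (tolerance 0.005 thousandths), 0.974% as natural logs and 1.08% as log10. How the authors corrected background, filtered spots, assigned dyes or centred the values, and on which genome build the probes were designed, is not stated in the sources used here.

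GEO's platform annotation supplied 1 symbol for 15655 probes; 198 probes with several and 4147 with none were left out. RefSeq's WBcel235 table gave locus names, biotypes and gene order. Arrays were centred on their medians and probes of a gene averaged. The 15092 genes measured on all 3 arrays were tested against 0 with limma 3.58.1 (lmFit, eBayes, 2 residual and 5.3 prior degrees of freedom) in R 4.3.3, Benjamini-Hochberg adjusted over all of them at a threshold of 0.05, which omits the reference's own spread. The fit was tested on simulated data with 200 changed genes among 15092. It recovered 99% of changes of 1 and 28% of changes of 0.5 on the log2 scale. Far more genes passed in the real data, so these rates need not hold there.

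Array values are given for the 12 lowest and 12 highest called members. They are also given for members singled out for a role, or by name alone, and for further members named in the text. Means are given for the 2 leading genes of each immune list, and pmk-1 was chosen after its value was seen. Members and lists were chosen with earlier results of these data known. Alternatives were other centrings and normalizations, genes on 2 arrays, probe summaries, priors, array weights, treat and leaving out each replicate.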

Additional observations from a re-analysis of the deposited data

How the results depend on the processing

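The count of 51 called members stayed within 1.5 times under the alternatives run except treat, whose null is any change up to 1.5-fold: it gave 14 calls, 4 higher and 10 lower. The calls by leaving out a replicate ranged from 35 to 60, with 10 to 21 higher and 25 to 39 lower, and 30 of the 51 kept call and sign each time. With centring within 32 runs of rows, 44 of the 51 did. Neither share of kept calls was worked out for all genes. The members' median of 0.021 was 0.050 as deposited, 0.035 after scale and 0.033 after quantile normalization, -0.033 with centring within runs, and between -0.011 and 0.021 leaving out a replicate. Of 429 values of the 33 members in the rule for array values under alternatives, 392 kept direction and side of the threshold, 28 lost a call and 7 gained one. The other 2 changed sign without a call: clec-61 ranged from -0.91 without replicate 2 to 0.018 without replicate 1, and clec-223 from -0.28 without replicate 1 to 0.070 without replicate 3. The causes were not tested. No paired analysis was possible because there is 1 group. Signal over background could not be assessed, as spot intensities were not used here.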

Other observations

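A probe annotated to both T27C5.12 and clec-244, left out of the tests of genes, stood at -1.34, -0.64 and -0.94 on replicates 1 to 3, with a mean of -0.97 ± 0.35 (adjusted p = 0.00252 among probes tested singly, limma). The 10 members with 2 complete probes had a median difference between their probes of 0.36 on the log2 scale, from 0.03 for clec-108 to 0.70 for clec-107.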
